A study of Mus musculus with 2 samples.

Results

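Bdnf, which encodes brain-derived neurotrophic factor, and Ntrk2 and Ntrk3, which encode the neurotrophin receptors TrkB and TrkC, were followed across 2 coronal sections of mouse brain that contained the dorsal hippocampus on both sides. The genes were taken by symbol, as 3 of the 32285 genes in the count matrices, and all 3 were detected in both sections. Expression had been measured with Visium, which captures the RNA of a tissue section on a slide of barcoded spots, and was counted in unique molecular identifiers (UMIs), each of which stands for 1 captured RNA molecule. Each section came from 1 adult male mouse of the genotype ArcCreERT2::eYFPflx on a C57BL/6 background, a line in which an inducible Cre recombinase is driven by Arc regulatory sequence and can switch on a yellow fluorescent protein, so that both mice carried both transgenes. The mouse of the trained group had learned active place avoidance, in which the animal avoids a shock zone on a rotating arena, and the mouse of the untrained group had been placed on the same rotating arena without an active shock zone. Both brains were taken after a test of memory retention. With 1 section of 1 mouse per group (n = 1 and n = 1), no difference between groups had a replicate check. Treatment, animal, section and library therefore cannot be told apart, and every interval below covers counting error only.

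Bdnf is secreted by neurons, and its transcription rises with neuronal activity through several alternative promoters. The protein acts through TrkB to support synaptic strengthening and neuronal survival, and in the adult hippocampus its messenger RNA is known to be abundant in granule cells and CA3 pyramidal neurons. Ntrk2 is transcribed in neurons as the full kinase receptor and in astrocytes mainly as a truncated receptor without the kinase domain, and Ntrk3 encodes the receptor of neurotrophin-3 and is found mostly in neurons.

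Bdnf (ENSMUSG00000048482) lies on the forward strand at chr2:109674700-109727007 of GRCm38/mm10, in the GENCODE vM21 annotation, with 11 coding transcripts of 2 to 3 exons. Ntrk2 (ENSMUSG00000055254) lies on the forward strand at chr13:58806569-59133970, and 7 of its 10 transcripts are coding, with 12 to 18 exons. Ntrk3 (ENSMUSG00000059146) lies on the reverse strand at chr7:78175959-78738012, and 6 of its 20 transcripts are coding, with 3 to 19 exons. The counts were per gene, so the alternative promoters of Bdnf could not be told apart, nor could the full-length and truncated receptors. The antisense gene Gm45346, which overlaps Bdnf over 1892 bases, had 0 UMIs in both sections, and the antisense gene Gm9885 inside Ntrk3 had 398 UMIs in the trained-labelled section and 628 in the untrained-labelled section.

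The RefSeq promoter windows of GRCm38.p6, 300 bases each with 250 of them before the start site, held 7 windows for Bdnf, 1 for Ntrk2 and 0 for Ntrk3. They were searched on both strands for TCACGTCA, a variant of the cyclic AMP response element that the activity-dependent factor CREB binds, and for its shorter core CGTCA, which lies inside the longer motif. Among 32851 windows of the same length, 0.441% held the longer motif and 20.8% held the core. In 1 of the 7 windows of Bdnf both were found, with the core beginning at position -35 from the start site, and the Ntrk2 window held neither. This window is the start region known for its response to calcium influx in neurons. It is shown first, beside the first window of Bdnf and the Ntrk2 window, all on the forward strand, because the windows differ in this motif while the gene counts pool all start sites. Capitals mark the longer motif with the core inside it, and a match of letters is a description and not a binding site.
Bdnf, chr2:109692186-109692485: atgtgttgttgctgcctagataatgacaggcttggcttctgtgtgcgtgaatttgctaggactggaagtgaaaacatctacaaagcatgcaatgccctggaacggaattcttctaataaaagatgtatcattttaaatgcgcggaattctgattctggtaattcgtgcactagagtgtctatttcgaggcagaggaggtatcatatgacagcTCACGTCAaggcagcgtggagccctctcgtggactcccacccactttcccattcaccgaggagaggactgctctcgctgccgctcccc
Bdnf, chr2:109674450-109674749: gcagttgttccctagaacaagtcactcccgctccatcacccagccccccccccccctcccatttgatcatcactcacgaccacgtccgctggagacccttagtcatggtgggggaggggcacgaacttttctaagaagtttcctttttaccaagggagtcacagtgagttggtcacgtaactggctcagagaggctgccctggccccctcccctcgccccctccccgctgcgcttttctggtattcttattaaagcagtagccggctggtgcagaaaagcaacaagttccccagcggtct
Ntrk2, chr13:58806319-58806618: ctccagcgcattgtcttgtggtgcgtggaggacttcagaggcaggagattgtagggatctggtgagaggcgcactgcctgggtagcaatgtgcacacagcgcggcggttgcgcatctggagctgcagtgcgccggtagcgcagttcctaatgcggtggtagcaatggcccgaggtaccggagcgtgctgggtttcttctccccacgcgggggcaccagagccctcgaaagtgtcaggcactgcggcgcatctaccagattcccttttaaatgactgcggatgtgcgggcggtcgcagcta

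Over 4152 spots of the trained-labelled section 29515831 UMIs were counted, and over 3738 spots of the untrained-labelled section 59029131 UMIs, a median of 5950.5 and 13766.5 UMIs per spot. Where 2 values follow each other without a section named, the first is that of the trained-labelled section. A total of 3448 spot barcodes occurred in both, which is a property of the slide grid, on which each barcode marks a position. Spots were grouped into regions by clustering on other genes, with Bdnf, Ntrk2, Ntrk3 and their pathway left out. The hippocampus comprised 579 and 560 spots in the 2 sections. Its cell layers were the CA1 layer (172 and 187) and the dentate granule layer (149 and 164). A further layer was led by Cabp7, Klk8, Neurod6 and Homer3 (88 and 130). The remaining hippocampal spots (170 and 79) are called the spots between the cell layers. All these parts follow clusters of expression and were not placed by position, so a layer may take in spots beside its cell bodies. Markers of CA1 pyramidal cells reached 1191 and 1057 UMIs per 1000000 UMIs of the layer (CPM) in the CA1 layer and 98.0 and 100.3 in the dentate layer, and markers of granule cells reached 1197 and 997 in the dentate layer and 44.1 and 100.6 in the CA1 layer. Among these layers the Cabp7-led one had the highest level of CA3 markers, 1094 and 800 CPM, but none of these markers was among its leading genes, so it is called by those genes. Each spot covers several cells. The study's own text gives the larger share of hippocampal spots positive for Arc to the trained mouse, whereas here, with a hippocampal outline that was rebuilt from the counts, the untrained-labelled section, which was also the deeper one, had the larger share. It was 36.1% (32.2 to 40.2, Clopper-Pearson) of spots in the trained-labelled section and 62.0% (57.8 to 66.0) in the other. Expected at an equal depth of 1000 UMIs per spot the shares of Arc were 8.17% and 7.48%, so the order then turned. Per UMI, the hippocampal levels of Arc (83.0 and 74.3 CPM) and of Egr1, another immediate early gene (164 and 139 CPM), were higher in the trained-labelled section, for Arc with an interval of the ratio that included 0. The measures thus did not all run one way, they did not settle whether the labels were exchanged, and the sections are named by their labels.

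Bdnf was highest in the cell layers of the hippocampus in both sections and low in almost every other region. Its pooled level, again in UMIs per 1000000 UMIs of a region, was 69.0 in the hippocampus and 13.2 outside it in the trained-labelled section (302 and 332 UMIs), and 51.1 and 14.8 in the untrained-labelled section (579 and 707 UMIs). The hippocampus therefore held 47.6% and 45.0% of all Bdnf UMIs of a section, with 14.8% and 19.2% of the UMIs of all genes. This amounted to a 5.23-fold higher level in the first section (log2 2.39, 95% counting interval 2.16 to 2.62) and a 3.45-fold higher level in the second (log2 1.79, 1.63 to 1.95). Fewer cells of a type and less RNA per cell cannot be told apart in such pooled values.

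Ntrk3 followed the same direction with a smaller contrast, and Ntrk2 ran the other way. The level of Ntrk3 was 87.8 CPM in the hippocampus and 42.3 CPM outside it in the trained-labelled section, and 76.4 and 37.5 CPM in the untrained-labelled section, which was 2.08-fold and 2.04-fold higher. The level of Ntrk2 was 153 CPM inside against 217 CPM outside in the trained-labelled section and 180 against 266 CPM in the untrained-labelled section, so that it was lower in the hippocampus by 1.41-fold and 1.48-fold. Of the 3 genes, 2 were at least 1.5-fold higher in the hippocampus than outside it in both sections, beside 9.62% of 10566 genes with at least 200 UMIs in the trained-labelled section and 8.54% of 12077 genes in the untrained-labelled section.

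**Figure D1:**
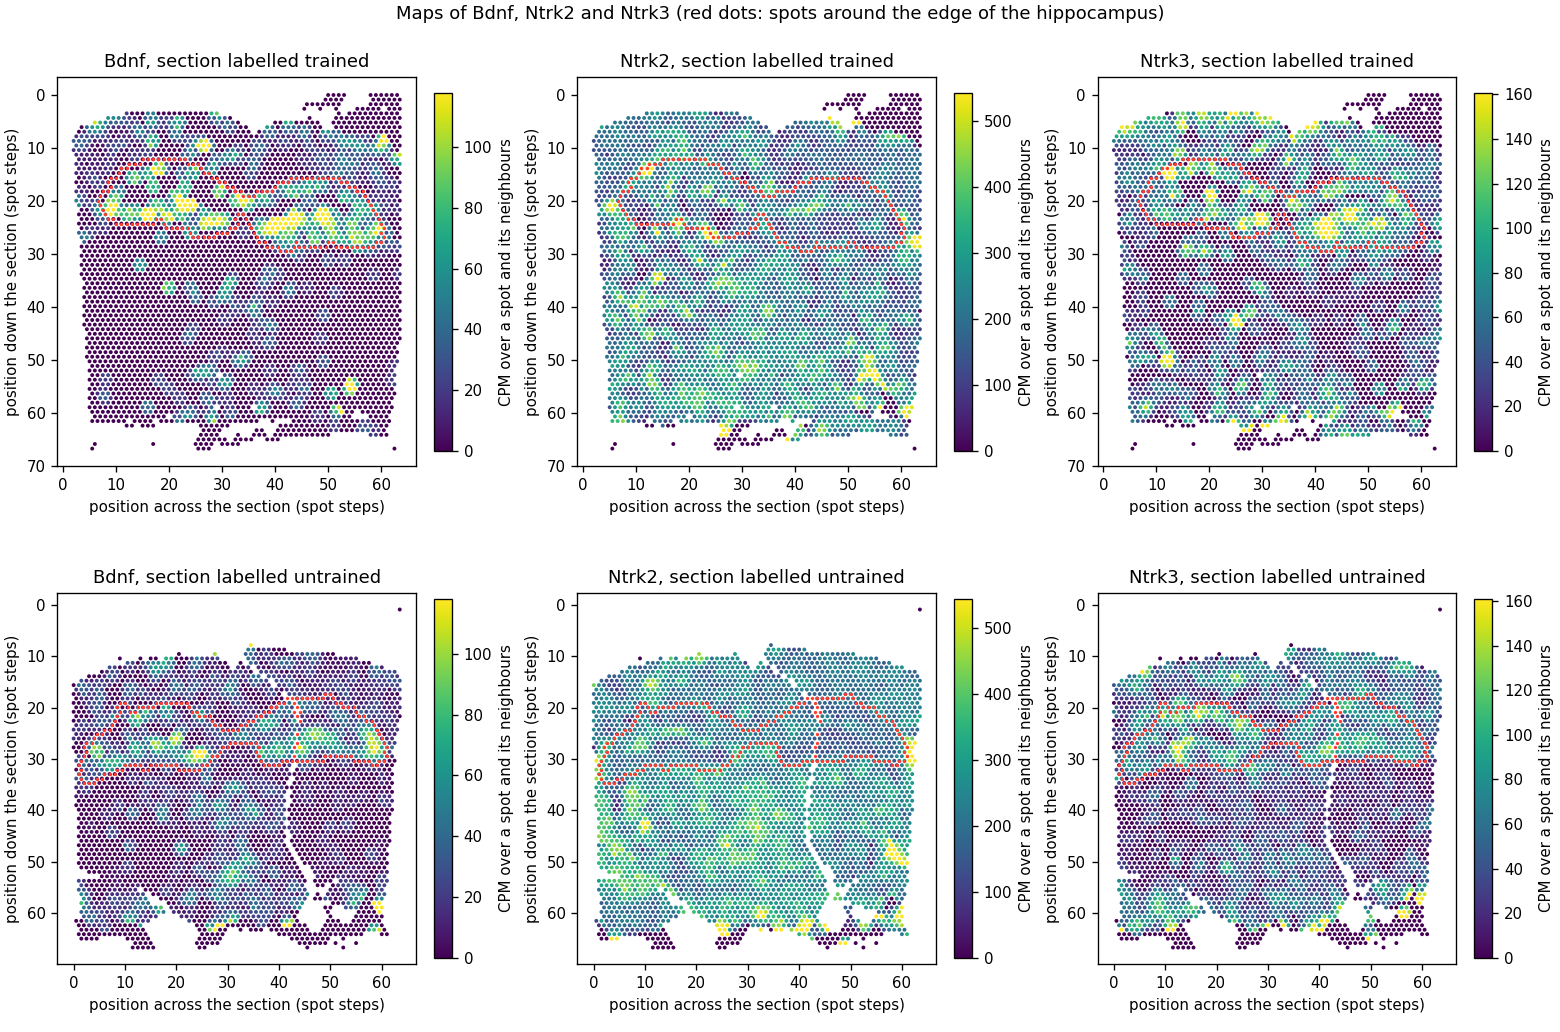
Level of each gene at each spot, pooled with its neighbouring spots and given in UMIs per 1000000, with position across and down the section in steps between spots and the colour scale capped at the 99th percentile of a gene over both sections. Red dots trace the edge of the hippocampus, and inside it the high values of Bdnf and Ntrk3 lie along the cell layers, where Bdnf reached 97.3 CPM in the dentate granule layer of the trained-labelled section.

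Among 18 regions with at least 20 spots in each section, the 3 highest levels of Bdnf were those of the 3 hippocampal cell layers in both sections. In the dentate granule layer Bdnf was at 97.3 CPM (95% interval 81.9 to 115) in the trained-labelled section and 58.9 CPM (51.6 to 66.9) in the untrained-labelled section, from 140 and 236 UMIs. The Cabp7-led layer had 78.5 CPM (63.2 to 96.4) and 64.6 CPM (56.4 to 73.8). The CA1 layer had 48.6 CPM (37.5 to 61.9) and 33.4 CPM (27.4 to 40.4). The intervals of the dentate and Cabp7-led layers overlapped in both sections, and the interval of the CA1 layer lay below both of them in both sections. With a coarser clustering, at a resolution of 1.0, the level of Bdnf in the CA1 layer was 67.3 and 44.7 CPM, and with each spot weighted equally it was 31.8 and 27.8 CPM. Upper cortex came next in the trained-labelled section, at 28.9 CPM (23.4 to 35.3), while in the untrained-labelled section it was at 17.2 CPM (13.8 to 21.2), below 3 regions outside the cell layers, the medial hypothalamus, the spots between the cell layers and the medial thalamus, with overlapping intervals for the latter pair. Deep cortex was at 17.99 and 16.2 CPM.

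Outside the hippocampus and cortex the highest of these levels of Bdnf was that of the medial hypothalamus, a region whose leading genes included Oxt and Avp, the genes of oxytocin and vasopressin. Its level was 16.6 CPM (11.3 to 23.6) in the trained-labelled section and 31.0 CPM (25.8 to 37.0) in the untrained-labelled section. Lateral hypothalamus, led by Pmch, was at 7.11 and 12.4 CPM, so the medial part was higher by 1.21 on the log2 scale (0.34 to 2.15) and by 1.31 (0.81 to 1.86). In the trained-labelled section this difference was that of the left side, 2.33, and on the right side it was -0.01, on 31 medial and 18 lateral UMIs in all. The lateral thalamus was at 9.35 and 9.18 CPM and the medial thalamus at 14.6 (10.3 to 20.2) and 21.7 CPM (17.7 to 26.3), with an interval that overlapped that of the medial hypothalamus in both sections. The log2 ratio of lateral over medial thalamus was -0.62 (-1.57 to 0.22) and -1.23 (-1.76 to -0.74), so only the second interval excluded 0.

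Bdnf was scarce in striatum and white matter. The striatum, whose neurons are known to receive Bdnf protein from cortex more than to transcribe the gene, had 7 UMIs (3.24 CPM) in the trained-labelled section and 2 UMIs (7.44 CPM) in 33 spots of the other. White matter had 5.6 and 5.22 CPM. The region led by Six3, rich in Gad1, the gene of a GABA-synthesising enzyme, had 1 and 4 UMIs (1.11 and 8.12 CPM), and the region led by Spp1 and Pvalb had 4.41 and 7.50 CPM from 4 and 9 UMIs, or 11.9 and 12.5 CPM with each spot weighted equally. The choroid plexus was at 14.4 CPM from 10 UMIs in the trained-labelled section, against 3.48 CPM from 17 UMIs, and was the lowest region only in the untrained-labelled section. From deep cortex downwards in the trained-labelled section, and from the CA1 layer downwards in the untrained-labelled section, every region's interval overlapped that of the next one in the order.

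**Figure D2:**
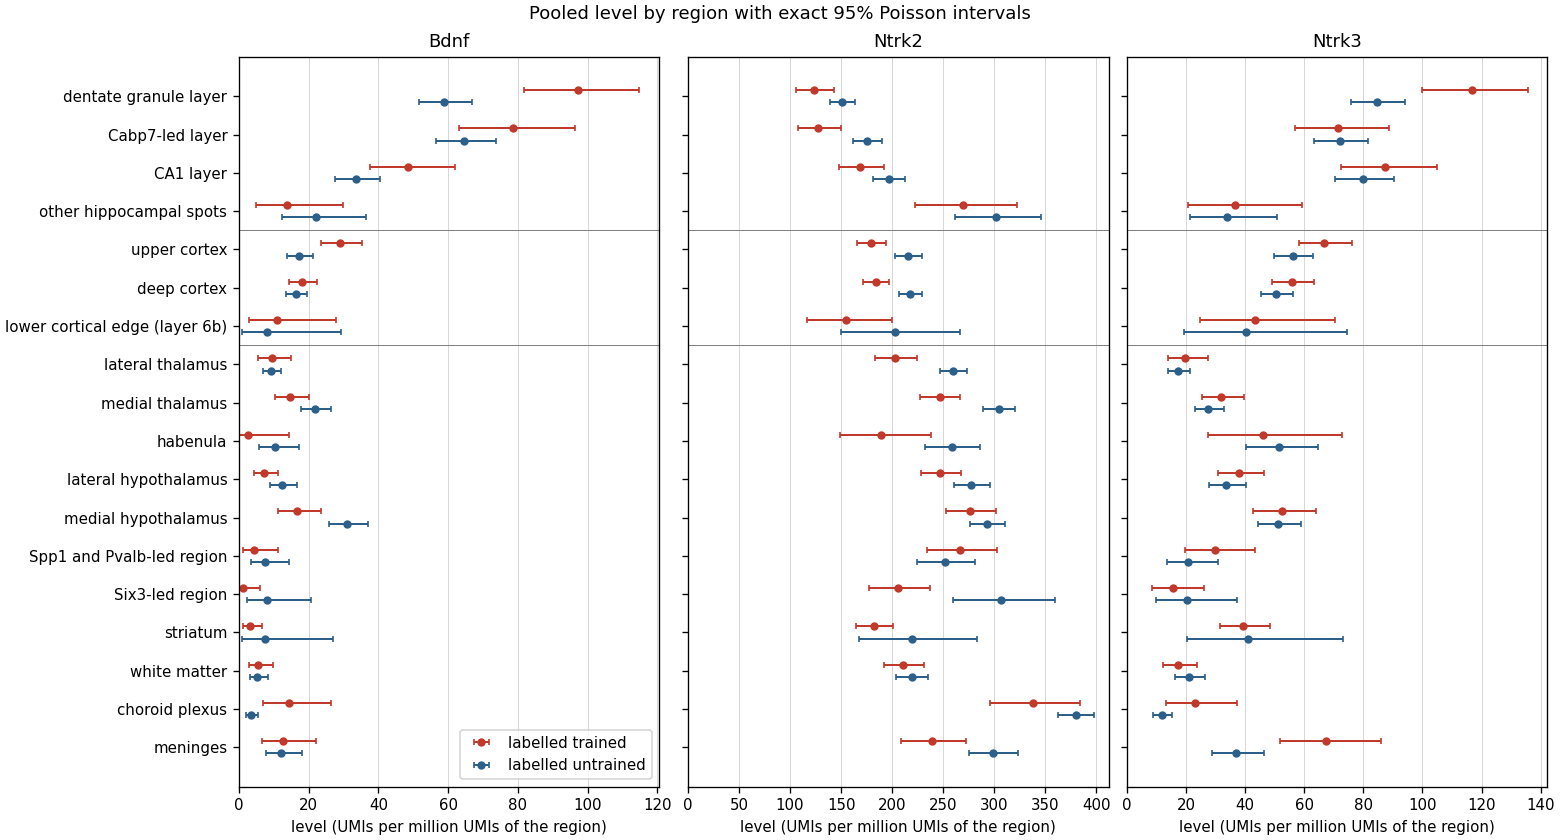
Pooled level of each gene (horizontal axis, UMIs per 1000000 UMIs of the region) in 18 regions of the trained-labelled section (red) and untrained (blue), with exact 95% Poisson intervals as bars. The hippocampal layers, above the first grey line, hold the highest Bdnf and Ntrk3 levels, and the dentate granule layer holds the lowest Ntrk2 level in both sections, 124 and 151 CPM.

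Ntrk2, which was spread more evenly than the other genes, had its lowest level in the neuronal layers of the hippocampus and its highest level in the choroid plexus. The dentate granule layer had 124 CPM (106 to 143) in the trained-labelled section and 151 CPM (139 to 164) in the untrained-labelled section, the lowest of the 18 regions in both. The Cabp7-led layer followed with 128 CPM (108 to 150) and 175 CPM (161 to 190), intervals that overlapped those of the dentate layer. The CA1 layer had 169 and 197 CPM. The choroid plexus, the epithelium that makes cerebrospinal fluid, had 338 CPM (296 to 384) and 380 CPM (363 to 397). In the trained-labelled section its interval overlapped that of the medial hypothalamus (253 to 301). The highest level was thus 2.73-fold and 2.51-fold above the lowest, while for Bdnf this factor was 88.0 and 18.6 and for Ntrk3 7.54 and 7.13, the factor for Bdnf in the trained-labelled section resting on 1 UMI in the Six3-led region.

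Within the hippocampus, the spots between the cell layers carried the highest level of Ntrk2. They had 269 CPM (223 to 322) and 302 CPM (262 to 346), which was higher than the dentate granule layer by 1.12 on the log2 scale (0.77 to 1.46) and by 1.0 (0.76 to 1.23). In the same spots Bdnf was at 13.7 and 22.1 CPM and Ntrk3 at 36.5 and 33.9 CPM, each below the level in the 3 cell layers. The intervals overlapped for Bdnf with the CA1 layer in the untrained-labelled section (12.4 to 36.4) and for Ntrk3 with the Cabp7-led layer in the trained-labelled section (20.9 to 59.3). Of all genes, 47.3% and 32.3% were at least 1.5-fold lower in these spots than in the CA1 layer. These spots were also rich in RNA of astrocytes, with 4062 and 3102 CPM of astrocyte markers against 1747 and 1622 CPM over whole sections, and in mitochondrially encoded RNA, with 27.6% and 27.9% of UMIs against 12.3% and 16.2%. The spots between the cell layers were also shallow, with a median of 2317 and 7180 UMIs against 5246 and 16628.5 UMIs over the hippocampus. On the left side lay 131 of the 170 spots and 60 of the 79. The part of any of these in the level of Ntrk2 was not tested. Over the 18 regions the Spearman correlation of Ntrk2 with the astrocyte markers was 0.480 and 0.352 and with the neuronal markers -0.478 and -0.443. This is a description over regions of 1 library, which differed in depth.

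Ntrk3 was highest in the dentate granule layer and lowest in the Six3-led region of the trained-labelled section and the choroid plexus of the untrained-labelled section. It had 117 CPM (99.8 to 136) in the dentate layer of the trained-labelled section and 84.5 CPM (75.8 to 94.0) in that of the untrained-labelled section. The CA1 layer had 87.5 and 79.9 CPM, the Cabp7-led layer 71.6 and 72.0 CPM, and upper cortex 66.8 and 56.2 CPM. Intervals of neighbours in this order overlapped, except at the step from the Cabp7-led layer to upper cortex in the untrained-labelled section. Lateral thalamus was at 19.8 and 17.4 CPM, and medial thalamus was at 32.0 and 27.6 CPM, so lateral was below medial by -0.68 (-1.30 to -0.11) and -0.66 (-1.06 to -0.27) on the log2 scale. White matter had 17.3 and 20.9 CPM, the Six3-led region 15.5 and 20.3 CPM and the choroid plexus 23.0 and 11.9 CPM. The Spp1 and Pvalb-led region had 29.8 and 20.8 CPM. The Cartpt-led region, which was not ranked, had 68.8 CPM (60.7 to 77.6) in the untrained-labelled section, above upper cortex. The habenula, a small relay nucleus beside the thalamus, had 46.1 and 51.5 CPM for Ntrk3, with only 2.56 and 10.4 CPM for Bdnf.

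The order of the regions was largely shared by the 2 sections. The Spearman correlation of the level between sections over the 18 regions was 0.756 for Bdnf, 0.845 for Ntrk2 and 0.920 for Ntrk3. The authors' own score of spatial pattern, Moran's I, which is higher where neighbouring spots have similar levels, was 0.118 and 0.123 for Bdnf, 0.0806 and 0.135 for Ntrk2 and 0.0734 and 0.135 for Ntrk3. It placed Bdnf above 86.4% and 82.7% of the genes with at least 400 UMIs in a section, and the values of a gene were not set against each other because the sections differed in depth.

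Within the hippocampus, the dentate granule layer was above the CA1 layer in Bdnf and below it in Ntrk2. The log2 ratio of the 2 layers was 1.0 (0.57 to 1.45) for Bdnf in the trained-labelled section and 0.81 (0.48 to 1.16) in the untrained-labelled section, or 1.99-fold and 1.76-fold. For Ntrk2 it was -0.45 (-0.74 to -0.16) and -0.38 (-0.54 to -0.22). For Ntrk3 it was 0.42 (0.07 to 0.77) and 0.08 (-0.16 to 0.32), so the second interval included 0. Bdnf, and with it 1 of the 3 genes, was past 1.5-fold higher in both sections, beside 11.5% of 2609 genes in the trained-labelled section and 8.81% of 5485 genes in the untrained-labelled section. With a coarser clustering, at a resolution of 1.0, the ratio of Bdnf was 0.56 and 0.42, below 1.5-fold in both sections. The ratio of Ntrk3 was then 0.02 and -0.22, so its sign turned in the untrained-labelled section, and that of Ntrk2 was -0.16 and -0.13.

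The Cabp7-led layer also exceeded the CA1 layer in Bdnf, by 0.69 (0.22 to 1.17) and 0.95 (0.61 to 1.30) on the log2 scale. Against the dentate granule layer no direction was shared, since the log2 ratio of dentate over Cabp7-led was 0.31 (-0.08 to 0.71) in the trained-labelled section and -0.14 (-0.41 to 0.14) in the untrained-labelled section. Ntrk3 was higher in the dentate than in the Cabp7-led layer in the trained-labelled section, by 0.70 (0.32 to 1.1), and by 0.23 (-0.01 to 0.48) in the other.

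Left and right sides of a section, which share 1 animal and 1 library, gave a second look at each layer. The sides were not alike in size or depth. In the trained-labelled section the CA1 layer had 69 spots on the left and 103 on the right, and the dentate granule layer 52 and 97. Its hippocampus had 286 and 293 spots with 78 and 224 UMIs of Bdnf, at 64.1 and 70.9 CPM, so its left side was shallower. In the dentate granule layer Bdnf was at 101 CPM on the left and 96.2 CPM on the right of the trained-labelled section, and at 60.6 and 58.1 CPM in the untrained-labelled section, so the sides differed by less than the sections. In the Cabp7-led layer it was at 96.4 and 73.0 CPM and at 51.5 and 73.2 CPM, so the right sides of the sections were nearly equal. In the CA1 layer it was at 48.6 CPM on both sides of the trained-labelled section and at 24.4 and 37.6 CPM in the untrained-labelled section. Over the whole hippocampus of the untrained-labelled section the left side was lower for Bdnf, with a log2 ratio of left over right of -0.28 (-0.55 to -0.03), and higher for Ntrk2, with 0.26 (0.13 to 0.39). The dentate granule layer was above the CA1 layer for Bdnf on each side of each section, with log2 ratios of 1.04 on the left and 0.98 on the right in the trained-labelled section and of 1.29 and 0.62 in the untrained-labelled section.

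**Figure D3:**
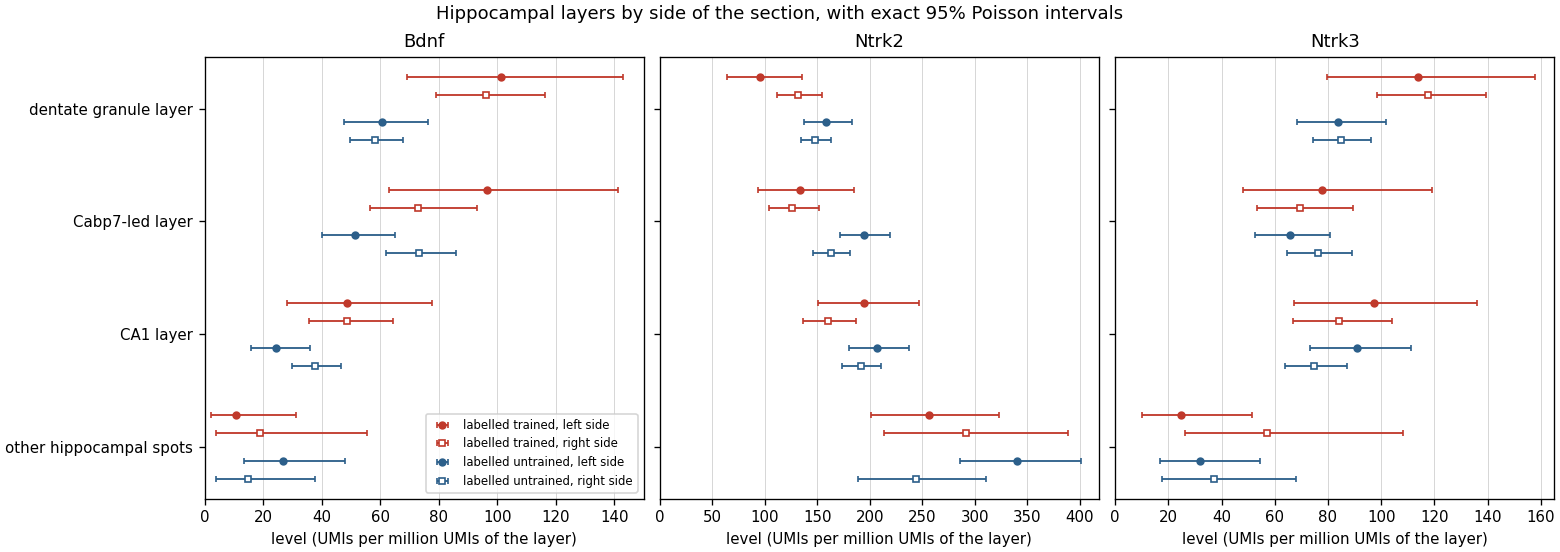
Pooled level of each gene (horizontal axis, UMIs per 1000000 UMIs of the layer) in 4 parts of the hippocampus, for the left side (filled circles) and the right side (open squares) of the trained-labelled section (red) and untrained (blue), with exact 95% Poisson intervals. Bdnf in the dentate granule layer lies at 101 and 96.2 CPM in red and at 60.6 and 58.1 CPM in blue.

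The share of hippocampal spots with at least 1 UMI of Bdnf was 29.5% (25.8 to 33.4, Clopper-Pearson) in the trained-labelled section and 45.5% (41.4 to 49.8) in the untrained-labelled section, where the median depth of hippocampal spots was 5246 and 16628.5 UMIs. At an equal depth of 1000 UMIs per spot, with the share expected over all possible draws, the order turned and the shares were 4.40% and 3.76%. The share then was 8.04% and 4.77% in the dentate granule layer, and 0.47% and 0.44% in white matter, which should hold few Bdnf-expressing cells and had median depths of 3965 and 7084 UMIs. For Ntrk2 the hippocampal share was 60.5% and 94.5% as counted and 17.4% and 18.8% at equal depth, and for Ntrk3 it was 36.6% and 62.7% as counted and 6.37% and 6.39% at equal depth. As counted, the deeper section had the larger share for all 3 genes, while at equal depth the share of Bdnf was the larger one in the shallower section.

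Between the 2 sections, Bdnf was higher in the hippocampus of the trained-labelled section and Ntrk2 was lower there, both by less than 1.5-fold. The log2 ratio, with the trained-labelled section over the untrained-labelled one, was 0.43 (0.23 to 0.64) for Bdnf, from 69.0 and 51.1 CPM. It was -0.23 (-0.36 to -0.11) for Ntrk2 and 0.20 (0.02 to 0.38) for Ntrk3. Of the 3 genes 0 were past 1.5-fold, beside 12.8% of the 5794 genes with at least 400 UMIs over both sections, which comprised 8.6% that were higher and 4.18% that were lower. The median ratio of all these genes was 0.07. Bdnf lay above 83.4% of them, Ntrk3 above 63.7% and Ntrk2 above 19.8%. In 1 draw of 1000 UMIs per spot the ratio of Bdnf turned to -0.31 (-1.24 to 0.61), on 20 and 24 UMIs. Expected over all such draws, an alternative chosen after seeing the data, the ratio was 0.23 for Bdnf, -0.10 for Ntrk2 and 0.02 for Ntrk3, and removal of the trend of all ratios with the GC content of a transcript gave 0.20 for Bdnf.

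Outside the hippocampus the ratio of Bdnf was -0.17 (-0.36 to 0.02), while those of the receptors were close to their hippocampal ones, at -0.30 (-0.34 to -0.25) for Ntrk2 and 0.17 (0.06 to 0.28) for Ntrk3. Again 0 of the 3 genes were past 1.5-fold, beside 12.9% of 11100 genes, with 8.01% higher and 4.88% lower. The hippocampal ratio of Bdnf was above its ratio outside by 0.60 on the log2 scale (0.32 to 0.87), more than for 99.5% of 5788 genes, among which the 5th and 95th percentiles were -0.30 and 0.26. The corresponding differences were 0.06 (-0.07 to 0.20) for Ntrk2 and 0.03 (-0.18 to 0.23) for Ntrk3. For Bdnf the regions outside were not alike. In cortex as a whole its ratio was 0.42 (0.13 to 0.72), on 180 and 205 UMIs, close to the hippocampal 0.43. The sections held unequal tissue outside the hippocampus, with 215 and 33 spots of striatum and 5 and 184 spots of a region led by Cartpt. The ratio of Bdnf outside depended on the processing, with -0.48 when each spot was weighted equally and -0.40 without the trend with GC content. Without both regions, an alternative chosen after seeing the data, the ratio outside was 0.0036 (-0.20 to 0.20) for Bdnf, -0.29 for Ntrk2 and 0.29 for Ntrk3. The hippocampal ratio of Bdnf was then above that outside by 0.43 (0.15 to 0.71), more than for 98.96% of 5785 genes.

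By region, the ratio of Bdnf was not of 1 direction. It was 0.74 (0.31 to 1.18) in upper cortex, 0.73 (0.41 to 1.03) in the dentate granule layer, 0.54 (0.07 to 1.0) in the CA1 layer and 0.28 (-0.09 to 0.64) in the Cabp7-led layer. Deep cortex, directly below upper cortex, had 0.15 (-0.28 to 0.57), and the choroid plexus had 2.08 (0.76 to 3.26) on 10 and 17 UMIs. In the medial hypothalamus the ratio was -0.88 (-1.52 to -0.32) and in the medial thalamus -0.56 (-1.15 to -0.01), so there the untrained-labelled section was the higher one. Ntrk2 was below 0 in every region of the plot of section ratios, between -0.45 in the Cabp7-led layer and -0.06 in white matter, and outside the plot it was 0.09 (-0.16 to 0.33) in the Spp1 and Pvalb-led region and -0.58 (-0.89 to -0.26) in the Six3-led region. Ntrk3 was between -0.26 in white matter and 0.47 (0.19 to 0.74) in the dentate granule layer in the same plot, and in the meninges it was 0.87 (0.36 to 1.37), from 67.4 and 36.9 CPM. Its ratio was 0.99 (0.06 to 1.77) in the choroid plexus, on 16 and 58 UMIs, and -0.41 (-1.67 to 0.94) in the Six3-led region, on 14 and 10 UMIs.

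**Figure D4:**
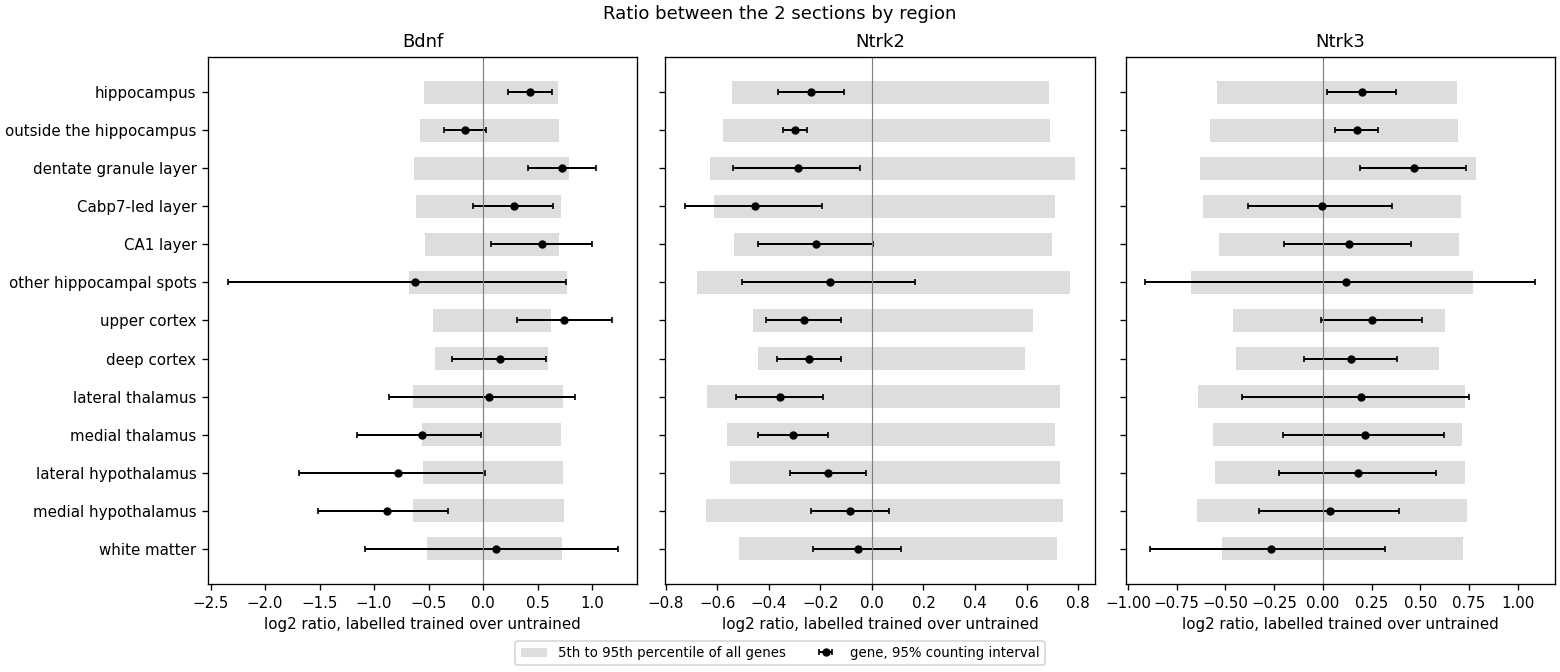
Log2 ratio between sections, trained-labelled over untrained-labelled (horizontal axis), for each gene in the hippocampus, outside it and in single regions, as points with 95% counting intervals, over grey bars that span the 5th to 95th percentile of all genes with enough UMIs in that region. Bdnf lies right of 0 in the dentate granule layer (0.73) and upper cortex (0.74) and left of 0 in the medial hypothalamus (-0.88), and Ntrk2 lies left of 0 in each row.

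Arc is an immediate early gene whose transcript marks recently active neurons, and the study had divided hippocampal spots by the presence of an Arc UMI. Over the hippocampus as a whole, the ratio of Bdnf between spots with and without Arc had an interval that included 0 in both sections. The trained-labelled section had 71.3 CPM in 209 Arc-positive spots and 66.7 CPM in 370 Arc-negative spots (log2 0.10, -0.24 to 0.43), and the untrained-labelled section had 51.0 CPM in 347 and 51.5 CPM in 213 spots (log2 -0.02, -0.28 to 0.25). Standardised over the hippocampal layers, between which the share of Arc-positive spots differed, the ratio of Bdnf was 0.35 and 0.17, so in the untrained-labelled section its sign turned. Ntrk2 was lower in Arc-positive spots of the trained-labelled section, by -0.31 (-0.54 to -0.09), with -0.08 (-0.21 to 0.06) in the untrained-labelled section. Ntrk3 had -0.09 (-0.39 to 0.21) and 0.13 (-0.08 to 0.35). Past 1.5-fold in either direction were 0 of the 3 genes in each section, beside 9.0% of 3834 genes and 5.17% of 7099 genes. The sides of the trained-labelled section differed. On its left side Bdnf was higher in Arc-positive spots, by 0.80 (0.13 to 1.49) on 41 and 37 UMIs, and on its right side the ratio was -0.17 (-0.56 to 0.22). For Ntrk2 the left side gave 0.09 (-0.33 to 0.50) and the right side -0.45 (-0.72 to -0.18). In the untrained-labelled section Bdnf had -0.20 (-0.63 to 0.25) and -0.03 (-0.38 to 0.33) on the left and right. There Ntrk2 turned from -0.26 (-0.46 to -0.05) on the left to 0.24 (0.03 to 0.45) on the right. Arc-positive spots were deeper, with a median of 7877 against 3933 UMIs and 18244 against 12479 UMIs. In 1 draw of 1000 UMIs per spot, which also decided anew which spots were Arc-positive, 39 and 32 positive spots remained, and the ratio of Bdnf was 0.09 (-5.84 to 2.19) and 0.87 (-2.55 to 2.61), on 1 and 2 UMIs of Bdnf in these spots, so a difference was not detectable at this depth.

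Within single layers, the interval of the Bdnf ratio excluded 0 in the CA1 layer of the trained-labelled section and the Cabp7-led layer of the untrained-labelled section. In the CA1 layer of the trained-labelled section it was at 59.0 CPM in Arc-positive spots (59 UMIs) and 17.8 CPM in Arc-negative spots (6 UMIs), a log2 ratio of 1.63 (0.52 to 3.23), but in the untrained-labelled section the ratio was 0.07 (-0.85 to 1.31). In the Cabp7-led layer it was 0.23 (-0.43 to 0.95) and 0.78 (0.23 to 1.42), and in the dentate granule layer 0.08 (-0.55 to 0.64) and -0.28 (-0.66 to 0.10). Between the cell layers there were 0 UMIs of Bdnf in Arc-positive and 6 in Arc-negative spots of the trained-labelled section, and 5 and 10 in the untrained-labelled section. No layer thus had an interval above 0 in both sections. Where the interval excluded 0, Arc-positive spots were deeper, with medians of 7589 against 3675.5 UMIs and 28564 against 14025 UMIs. They were deeper too in the CA1 layer of the untrained-labelled section (15358.5 against 8684) and the Cabp7-led layer of the trained-labelled one (12483.5 against 8104.5). Depths were closer in the dentate granule layer, at 8122 against 7637 and 21392 against 20343 UMIs. The part of depth was not tested. The log2 ratio of Ntrk2 was below 0 in Arc-positive spots of the CA1 layer, at -0.51 (-0.91 to -0.08) and -0.17 (-0.54 to 0.23), and of the Cabp7-led layer, at -0.50 (-0.98 to 0.00) and -0.34 (-0.61 to -0.06). In the dentate granule layer it was -0.47 (-1.1 to 0.08) and 0.16 (-0.07 to 0.40), and between the cell layers 0.41 (-0.27 to 1.02) and -0.39 (-0.85 to 0.03), so no direction was shared there.

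Of the genes of neurotrophin-3 and neurotrophin-4, Ntf3 had a higher level in the hippocampus than outside it and Ntf5 was scarce. Ntf3, which encodes this ligand of TrkC, had its highest level in the dentate granule layer in both sections, at 41.7 and 37.7 CPM, where Ntrk3 was highest too. It had 21.0 and 19.2 CPM in the hippocampus as a whole, against 1.63 and 1.64 CPM outside it. Its log2 ratio between sections in the hippocampus was 0.14 (-0.23 to 0.49). Ntf5, the gene of neurotrophin-4, had 1 and 5 hippocampal UMIs.

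Of the other receptors, Sort1 was abundant and Ngfr, which encodes the neurotrophin receptor p75, was near 0 UMIs in the hippocampus. Sort1, which encodes sortilin, a sorting receptor of neurotrophins and their precursors, had 318 and 268 CPM in the hippocampus and was highest in the CA1 layer, at 367 and 299 CPM. Its ratio between sections was 0.25 (0.15 to 0.34). Ngfr had 1 and 6 hippocampal UMIs. The sortilin relatives differed in place. Sorcs3 was highest in the CA1 layer (55.3 and 47.7 CPM), Sorcs2 in the medial thalamus (55.3 and 47.6 CPM), and Sorcs1 had 16 and 45 hippocampal UMIs. Their hippocampal ratios were 0.10 (-0.23 to 0.40), 0.13 (-0.25 to 0.48) and -0.09 (-1.04 to 0.73).

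In a list of 48 genes of neurotrophin processing, receptors, signalling and targets, 27 had at least 400 UMIs in the hippocampus of both sections together. Of these 2 were at least 1.5-fold higher in the trained-labelled section, and 0 were lower, beside 8.6% and 4.18% of all genes. The list had a median ratio of 0.10 beside 0.07 for all genes. The highest below that threshold was Map2k1, a kinase of the ERK cascade, at 0.54 (0.45 to 0.64). The lowest were Vgf, a neuropeptide precursor induced by Bdnf, at -0.56 (-0.77 to -0.35), Mapk3 at -0.41 (-0.54 to -0.27), and Crtc1, a coactivator of CREB, at -0.37 (-0.57 to -0.18). The activity-regulated genes Arc and Egr1 had ratios of 0.16 (-0.02 to 0.34) and 0.25 (0.12 to 0.37), and Npas4, on 49 and 135 UMIs, had -0.08 (-0.59 to 0.39). Outside the hippocampus 40 of the 48 genes had enough UMIs, of which Sorcs1 (0.81) and Map2k1 (0.67) were past 1.5-fold higher and Furin (-0.64), a protease that cleaves neurotrophin precursors, was lower, beside 8.01% and 4.88% of all genes.

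The genes whose levels over the 18 regions were most like those of each gene were found among 6368 genes with at least 2000 UMIs, by the lower of the Pearson correlations in the 2 sections. For Bdnf these were Clstn2 (0.881 and 0.865), Cpne6 (0.867 and 0.856), Arhgef25 (0.874 and 0.818), Pcdh20 and Enc1. For Ntrk2 they were Timp3, Apoe, a lipoprotein gene of astrocytes (0.824 and 0.798), Prxl2a, Psd2 and Gng5. For Ntrk3 they included Stxbp5 (0.934 and 0.936), Rimbp2 (0.955 and 0.932), Chst1 (0.898 and 0.952) and Gria2, which encodes an AMPA receptor subunit (0.908 and 0.887). The points of each correlation are regions of 1 library, which differed in depth. With the Spearman correlation in place of the Pearson correlation, 1, 2 and 4 of the 5 genes were again among the top 5 for Bdnf, Ntrk2 and Ntrk3.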

How the data were processed

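The authors had trimmed reads with TrimGalore, aligned them to the 10x reference on mm10 and counted UMIs per gene and spot with Space Ranger 2.0.0, and the deposited filtered count matrices were used as they were. The deposited spatial tables held a score by the authors, Moran's I, and their own p-values, which were not used. Genes and lists were chosen with earlier results of these data known. Spots with at least 500 UMIs of both sections were clustered together on 945 variable genes, without the 3 genes, the pathway list, immediate early, mitochondrially encoded, ribosomal and haemoglobin genes, with scanpy 1.11.5 and leidenalg 0.10.2 (30 components, 15 neighbours, resolution 1.5, seed 7, 21 clusters). Clusters were named from marker lists, and otherwise by their leading genes. No doublet caller was run, since a spot holds several cells. The hippocampus was the connected patch of hippocampal clusters on each side.

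For each region the UMIs of its spots were summed and scaled to 1000000 (CPM). Levels have exact Poisson intervals, shares Clopper-Pearson intervals and ratios, with a pseudocount of 0.5 UMI, exact conditional binomial intervals, all at 95% (scipy 1.17.1). Spots are not replicates, so no p-value was computed. A gene was counted in a comparison with at least 400 UMIs over both sections, or 200 within a section, and was called past 1.5-fold. The ratio, its interval and the share at equal depth were checked on simulated counts that held counting error only. The clustering, the regions and the other steps were not tested in this way. The named genes were the 3 genes, the other ligands and receptors of the list, its 3 highest and 3 lowest hippocampal ratios, and the 5 genes closest in regional pattern to each gene. Alternatives covered the clustering, shallow spots, scaling, spot weights, depth, sides, GC content, pseudocount and the filter on low counts. Some genes that this rule names are not reported here. Reads and images were not analysed here.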

Additional observations from a re-analysis of the deposited data

How the results depend on the processing

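No paired analysis was possible because the groups compared share only replicate number 1. All values here are log2 ratios unless a level is named, and the cause of a change was not tested unless stated. The alternatives with expected values over all draws, with standardisation over layers of the section ratio and without the striatal and Cartpt-led regions were chosen after seeing the data. With 1 draw of 1000 UMIs per spot the hippocampal section ratio of Bdnf turned from 0.43 to -0.31 (-1.24 to 0.61), on 20 and 24 UMIs left by the draw, while the value expected over all draws was 0.23, and removal of the GC trend gave 0.20. The hippocampal ratio of Ntrk2 (-0.23) was -0.10 with each spot weighted equally, -0.024 in 1 draw and -0.10 expected over all draws, and that of Ntrk3 (0.20) was 0.021 with equal weights and 0.020 expected over all draws. Outside the hippocampus Bdnf (-0.17) had -0.48 with equal weights and -0.40 without the GC trend, Ntrk2 (-0.30) had -0.36 without mitochondrially encoded genes, -0.18 in 1 draw and -0.37 relative to the median gene, and Ntrk3 (0.17) had 0.025 in 1 draw, 0.0057 without the GC trend and 0.29 without the striatal and Cartpt-led regions.

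For the dentate granule over the CA1 layer, a resolution of 1.0 gave Bdnf 0.56 and 0.42 (1.0 and 0.81 at first), Ntrk2 -0.13 in the untrained-labelled section and Ntrk3 0.022 and -0.22. In 1 draw Bdnf had 1.68 and 2.24, and the untrained-labelled section had -0.21 for Ntrk2 and -0.32 for Ntrk3. The left side alone gave 1.29 for Bdnf of the untrained-labelled section and -1.02 for Ntrk2 of the trained-labelled one. For Arc-positive over Arc-negative spots, the left side of the trained-labelled section gave 0.80 for Bdnf, 0.092 for Ntrk2 (-0.31 at first, so the sign turned) and 0.25 for Ntrk3, and that of the untrained-labelled section -0.26 for Ntrk2 and 0.39 for Ntrk3, with 0.24 for Ntrk2 on the right. In 1 draw the untrained-labelled section had 0.87 for Bdnf, 0.13 for Ntrk2 and 1.89 for Ntrk3. Of the levels by region, 53 moved beyond their counting interval under a coarser clustering, on 1 side or with equal weights, and 482 did not. Levels of Bdnf on 1 side alone were 0 CPM on the left in the habenula, the Spp1 and Pvalb-led and the Six3-led regions of the trained-labelled section and in layer 6b of the untrained-labelled one, and 0 CPM on the right in its striatum. A resolution of 2.0 and leaving out spots under 1000 UMIs moved none of the 4 kinds of ratio beyond its counting interval, nor did a pseudocount of 1, run for the section ratios, or standardisation over layers, run for the hippocampal section ratios and the ratios by Arc. Depth limits the thinned values, since few UMIs of Bdnf remain.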
